A study of Mus musculus with 6 samples.

Results

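The genes described here are 10 heat shock and small chaperone genes, chosen by name: Hspa1a, Hspa1b, Hspa8, Hsp90aa1, Hspb1, Hspb6, Hspb7, Hspb8, Cryab and Bag3. They are 10 of the 54093 genes measured by RNA-seq in the right atrium (RA) of C57BL/6 mice. All 10 were among the 12627 tested genes, those with a mean of at least 1 FPKM (fragments per kilobase of gene, scaled per library). Both groups were wild-type mice taken on postnatal day 21 (P21), with 3 libraries each. The VO (volume overload) group had received a fistula between the abdominal aorta and the inferior vena cava on postnatal day 7, which returns arterial blood to the right heart. The sham group had been operated on without a fistula. The labels do not say whether a library came from 1 animal or from pooled atria, so the p-values measure the spread between these libraries only. The methods allowed pups of either sex, and the sex behind each library is not given.

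Chaperones bind proteins that are not yet folded, or have lost their fold, and keep them from aggregating. The small heat shock proteins (Hspb1, Hspb6, Hspb7, Hspb8 and Cryab among the members) hold such proteins without using ATP, and they are abundant in heart muscle, where desmin, titin and filamin C are among the proteins they protect. HSP70 (Hspa8, Hspa1a, Hspa1b) and HSP90 (Hsp90aa1) refold proteins with ATP, and BAG3 couples HSP70 to HSPB8 so that damaged sarcomere proteins can be removed. Part of this set is induced through heat shock factor 1 (HSF1), which binds repeats of GAA and its reverse complement in promoters.

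The promoter sequences show which members carry such repeats. The 150 bases before the annotated start were read from RefSeq promoters of build GRCm38.p6, in which 7 of the 10 members had an entry, and the motifs GAANNTTC and TTCNNGAA were searched. Each motif is its own reverse complement, so both strands were covered. Either motif was present in 7.72% of the 32817 promoter windows of this length, GAANNTTC in 3.95% and TTCNNGAA in 4.21%. Of the 7 members, 4 held a motif, in each case GAANNTTC: Hspa1a, Hspa1b, Hspb1 and, before its second annotated start, Hspb6. The 7 members had 8 windows, as Hspb6 had more than 1. The window before its first start held no motif, and both Hspb6 windows overlap an annotated Hspb6 exon. The Hspa1a and Hspa1b windows are nearly identical, so their matches are not independent. No motif was found in these windows for Hspb7, Hspb8 and Bag3. The 6 windows below contain no annotated exon; they are shown because the heat-inducible pair and Hspb1 carry the motif while Hspb7, Hspb8 and Bag3 do not. Each is written 5′ to 3′ on the strand of its gene, with the motif in capitals.
Hspa1a (chr17:34972157-34972306, minus strand): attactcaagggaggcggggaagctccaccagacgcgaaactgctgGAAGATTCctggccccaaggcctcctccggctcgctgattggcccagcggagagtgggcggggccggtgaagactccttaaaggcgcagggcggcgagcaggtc
Hspa1b (chr17:34959239-34959388, minus strand): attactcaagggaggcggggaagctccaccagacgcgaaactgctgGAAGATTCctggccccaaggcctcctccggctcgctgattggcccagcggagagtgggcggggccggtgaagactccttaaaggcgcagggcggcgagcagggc
Hspb1 (chr5:135887769-135887918, plus strand): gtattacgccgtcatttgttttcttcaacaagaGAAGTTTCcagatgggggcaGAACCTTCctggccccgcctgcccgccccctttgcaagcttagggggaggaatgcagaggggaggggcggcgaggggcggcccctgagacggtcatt
Hspb7 (chr4:141420629-141420778, plus strand): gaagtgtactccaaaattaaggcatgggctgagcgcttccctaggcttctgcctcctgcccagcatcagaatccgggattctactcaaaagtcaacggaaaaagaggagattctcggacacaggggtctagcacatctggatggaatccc
Hspb8 (chr5:116422865-116423014, minus strand): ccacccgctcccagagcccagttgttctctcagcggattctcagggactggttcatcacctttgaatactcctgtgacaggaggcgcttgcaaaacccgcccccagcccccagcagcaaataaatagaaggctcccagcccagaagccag
Bag3 (chr7:128523433-128523582, plus strand): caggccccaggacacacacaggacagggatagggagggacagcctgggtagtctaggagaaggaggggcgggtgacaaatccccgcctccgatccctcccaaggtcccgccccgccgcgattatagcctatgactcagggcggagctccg
The Hspa1a and Hspa1b windows were identical at 149 of 150 positions, and in both the motif began 104 bases before the start. In Hspb1 the motif was present at 117 and at 97 bases before the start. A match is a description of the letters only, and no binding was measured.

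In the RA at P21, every member had a lower mean in the VO group than in the sham group (4 of 10 when the libraries were scaled to 10 cardiomyocyte markers), and the small heat shock proteins differed most. Summed over Hspb1, Hspb6, Hspb7, Hspb8 and Cryab, the level was 1243, 1128 and 1175 FPKM in the 3 sham libraries and 609, 874 and 921 FPKM in the 3 VO libraries. The VO mean (801 ± 168, SD, n = 3) was 0.678 of the sham mean (1182 ± 58.1, SD, n = 3), and the groups did not overlap. The summed level of Hspa8 and Hsp90aa1 was 0.824 of the sham mean. All 10 members together took 0.436% to 0.460% of the fragments in the sham libraries and 0.327% to 0.396% in the VO libraries.

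No member passed the test. The difference was fitted with limma on log2(FPKM + 0.1) across all tested genes, and 0 of 10 members had an adjusted p under 0.05, where 1 of 12627 genes (Nppb, a natriuretic peptide), or 0.00792%, did. At an unadjusted p under 0.05, 5 of the 10 members (Hspb1, Hspb6, Hspb7, Hspb8 and Cryab) were lower in VO, against 8.08% of all tested genes, and 0 were higher, against 3.89%. In 6 members every VO library lay below every sham library, against 12.9% of all tested genes, and in 0 members above, against 8.25%. The median log2 fold change was -0.37 over the members and -0.01 over all tested genes. These counts depend on the scaling and on the libraries: without sham 1, 2 members in place of 5 were lower at an unadjusted p under 0.05 (4.74% of all tested genes), and scaled to the cardiomyocyte markers, 0 were and 0 had all VO libraries below all sham libraries. That scaling moved the median of all genes to 0.48, with 0.510% of all tested genes lower and 34.09% higher at an unadjusted p under 0.05.

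**Figure D1:**
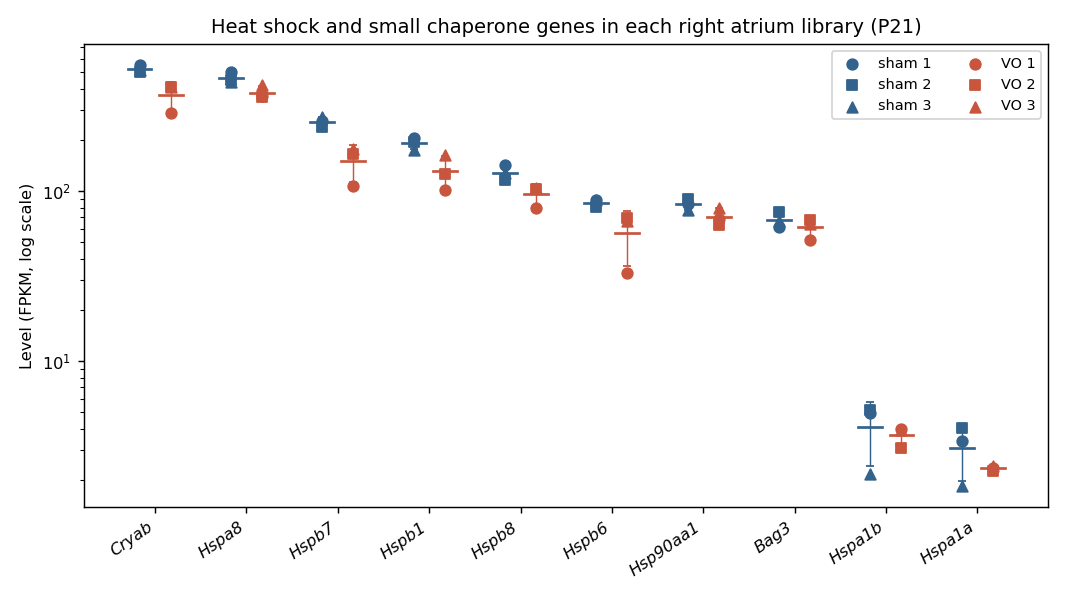
Level of each member in FPKM (y axis, log scale) in the 3 sham libraries (blue) and the 3 VO libraries (red), with the marker shape giving the library number, horizontal lines the group means and bars 1 SD. The 5 small heat shock genes and Hspa8 have all VO points below all sham points, while Hsp90aa1, Bag3, Hspa1b and Hspa1a overlap; Hspa1a and Hspa1b lie at 1.84 to 5.15 FPKM, far below the rest.

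Hspb7 had the lowest log2 fold change of the members, except with quantile normalization, where Hspb6 was marginally lower. Hspb7 (cvHSP) is a small heat shock protein of heart and skeletal muscle that associates with filamin C and titin, and its gene lies at chr4:141420779-141425311 on the plus strand (GRCm38, as are all gene positions here). Its level was 258, 236 and 272 FPKM in the sham libraries and 108, 164 and 177 FPKM in the VO libraries. The lowest sham library stood well above the highest VO library. Its log2 fold change was -0.80 (SE 0.20, 95% confidence interval -1.28 to -0.32, adjusted p = 0.364), at percentile 2.06 of all tested genes. Without VO 1, the lowest library, it was -0.58.

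Hspb6 (HSP20, a small heat shock protein that protein kinase A phosphorylates in heart and smooth muscle) lies at chr7:30552178-30555443 on the plus strand. It had 88.1, 80.3 and 88.0 FPKM in sham and 33.0, 69.3 and 66.8 FPKM in VO. VO 1 stood apart from the other VO libraries, which were closer to the sham range than to VO 1. The log2 fold change of -0.67 (SE 0.28, 95% confidence interval -1.33 to -0.02, adjusted p = 0.414) became -0.33 when VO 1 was left out. Every VO library lay below every sham library.

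Hspb1 (HSP25 in mouse, which guards actin filaments and is itself inducible by heat) lies at chr5:135887919-135889563 on the plus strand. Its 3 sham libraries had 204, 193 and 175 FPKM and its 3 VO libraries 102, 126 and 164 FPKM. VO 3 came close to the lowest sham library without reaching it. For Hspb1 the log2 fold change was -0.57 (SE 0.19, 95% confidence interval -1.01 to -0.13, adjusted p = 0.404). A processed pseudogene, Hsp25-ps1, holds 36.6% of the stretches of 150 bases (the read length) found in the Hspb1 transcript, and how fragments matching more than 1 place were counted is not given in the sources used here; Hsp25-ps1 itself was listed at 0.35 to 1.56 FPKM.

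Cryab (αB-crystallin, the chaperone of desmin) was the most abundant of the small heat shock genes. It lies at chr9:50751325-50756636 on the plus strand and ranked 58 of the 12627 tested genes by mean FPKM. Its level was 551, 502 and 513 FPKM in sham and 287, 411 and 409 FPKM in VO, with no overlap and with VO 1 again the lowest. This gave a log2 fold change of -0.52 (SE 0.18, 95% confidence interval -0.94 to -0.10, adjusted p = 0.406), which was -0.16 with quantile normalization. Its gene overlaps Hspb2, on the opposite strand, over 1030 bases; whether the counting used strand is not given, so reads in that stretch cannot be assigned to either gene with certainty.

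Hspb8 (HSP22, the small heat shock partner of BAG3) lies at chr5:116408491-116422864 on the minus strand. It had 142, 116 and 127 FPKM in sham and 79.6, 103 and 104 FPKM in VO. The groups were separate, with a narrower gap than for Hspb7. Hspb8 had a log2 fold change of -0.43 (SE 0.15, 95% confidence interval -0.78 to -0.08, adjusted p = 0.406).

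BAG3, the co-chaperone that binds both HSPB8 and HSP70, differed less than its partner. Bag3 (chr7:128523616-128546981, plus strand) had 61.6, 75.8 and 66.5 FPKM in sham and 51.4, 67.5 and 64.2 FPKM in VO. The groups overlapped, and only VO 1 lay outside the sham range. For Bag3 the log2 fold change was -0.16 (SE 0.14, 95% confidence interval -0.50 to 0.18, adjusted p = 0.612), an interval that spans 0; without VO 1 it was -0.04 and without sham 2 -0.08. The ratio of Hspb8 to Bag3 was 2.30, 1.53 and 1.91 in sham and 1.55, 1.53 and 1.62 in VO, which overlapped.

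Hspa8 (HSC70, the constitutive cytosolic HSP70, also needed for chaperone-mediated autophagy) had the second highest mean FPKM of the members. It lies at chr9:40800984-40810087 on the plus strand. Its level was 500.1, 451 and 436 FPKM in sham and 362, 356 and 419.8 FPKM in VO. All VO libraries lay below all sham libraries, although VO 3 approached sham 3. The log2 fold change was -0.29 (SE 0.14, 95% confidence interval -0.61 to 0.03, adjusted p = 0.424), and -0.04 with quantile normalization. Of its stretches of 150 bases, 55.4% occur in other genes as well, led by the pseudogenes Gm15459, Gm8355 and Gm6210, of which Gm15459 was listed at 0 in every library and Gm8355 at 1.05 to 2.56 FPKM.

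Hsp90aa1 (the inducible cytosolic HSP90, which with UNC45B folds myosin in muscle) lies at chr12:110690605-110702728 on the minus strand. It had 83.6, 89.6 and 77.7 FPKM in sham and 68.9, 62.9 and 79.6 FPKM in VO. VO 3 lay inside the sham range, so the groups overlapped. The log2 fold change was -0.25 (SE 0.13, 95% confidence interval -0.55 to 0.05, adjusted p = 0.439), and -0.06 with quantile normalization. The ratio of Hspa8 to Hsp90aa1 ran from 5.04 to 5.98 in sham and from 5.26 to 5.66 in VO, which overlapped.

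The strictly heat-inducible pair, Hspa1a and Hspa1b, was expressed at a low level and varied most among the sham libraries. Hspa1a (chr17:34969190-34972156, minus strand) had 3.38, 4.03 and 1.84 FPKM in sham and 2.34, 2.25 and 2.42 FPKM in VO. Hspa1b (chr17:34956436-34959238, minus strand) had 4.98, 5.15 and 2.17 FPKM in sham and 3.97, 3.09 and 3.93 FPKM in VO. In both genes sham 3 was the lowest library of the 6 and sham 2 the highest, and all 3 VO libraries lay between them. The log2 fold change was -0.32 for Hspa1a (SE 0.28, 95% confidence interval -0.97 to 0.33, adjusted p = 0.599) and -0.07 for Hspa1b (SE 0.33, 95% confidence interval -0.84 to 0.70, adjusted p = 0.936). Hspa1a was at -0.10 without sham 2 and at -0.64 without sham 3, and Hspa1b at 0.13 and -0.47.

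These paralogs share sequence, so their separate values are uncertain. Of the stretches of 150 bases, 39.7% in the Hspa1a transcript and 40.5% in the Hspa1b transcript occur in another gene, chiefly in each other. Their sum was 8.36, 9.18 and 4.01 FPKM in sham and 6.31, 5.34 and 6.34 FPKM in VO, a log2 difference of -0.17 (two-sided exact permutation p = 0.8, where the smallest p that 3 against 3 libraries allow is 0.1). The fragments behind these values, recovered from FPKM and gene length, numbered 89 to 206 a library for Hspa1a and 99 to 249 for Hspa1b. Without sham 2 the difference of the sum was 0.04, and without sham 1 and sham 3 it was -0.03 and -0.55.

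**Figure D2:**
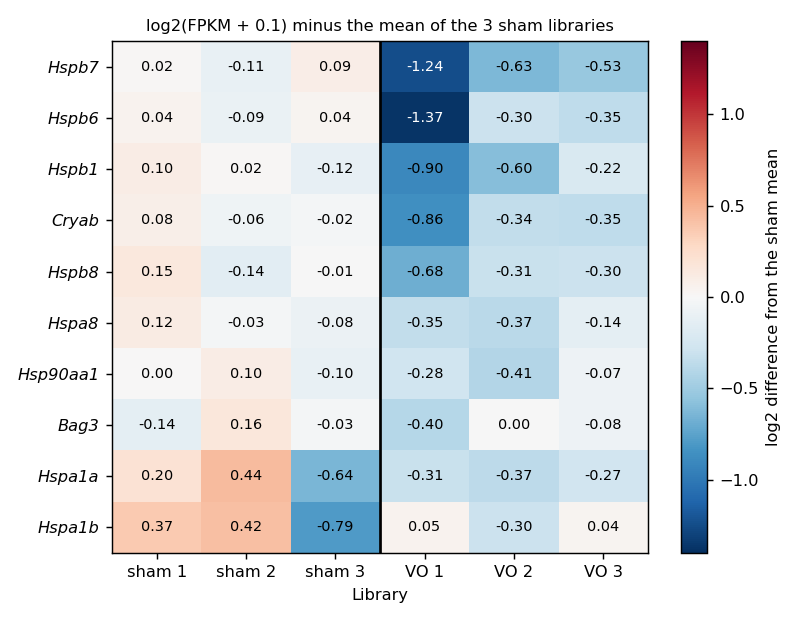
log2(FPKM + 0.1) of each member (rows) in each library (columns) minus the mean of the 3 sham libraries, in log2 units, blue for lower and red for higher. The 5 small heat shock genes are blue in all 3 VO columns and deepest in VO 1 (-1.24 for Hspb7, -1.37 for Hspb6), while Hspa1a and Hspa1b are lowest in sham 3 (-0.64 and -0.79).

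The members did not follow a single library order. VO 1 was the lowest library for 6 members, VO 2 for 2 and sham 3 for 2, and the highest was sham 1 for 5 members, sham 2 for 4 and sham 3 for 1. The median over members of the log2 difference from the sham mean was -0.54 in VO 1, -0.35 in VO 2 and -0.24 in VO 3.

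Ranked by sham mean, the order was Cryab (522 ± 25.7 FPKM), Hspa8 (462 ± 33.6), Hspb7 (255 ± 17.8), Hspb1 (191 ± 14.5), Hspb8 (128 ± 13.1), Hspb6 (85.5 ± 4.47), Hsp90aa1 (83.6 ± 5.94), Bag3 (68.0 ± 7.19), Hspa1b (4.10 ± 1.67) and Hspa1a (3.08 ± 1.12), each SD with n = 3. Neighbours with separate sham ranges were Cryab and Hspa8 (502 against 500.1 FPKM), Hspa8 and Hspb7, Hspb7 and Hspb1, Hspb1 and Hspb8, Hspb8 and Hspb6, Hsp90aa1 and Bag3, and Bag3 and Hspa1b. Hspb6 and Hsp90aa1 overlapped, as did Hspa1b and Hspa1a. In VO, Hspa8 (379 ± 35.2) had a higher mean than Cryab (369 ± 71.2), with overlapping libraries, and Hspb7 (149.8 ± 36.9) overlapped Hspb1 (131 ± 31.2). The order between genes depends on the gene length that FPKM divides by. For Hspa8 that length was 4301 bases, while its longest protein-coding transcript has 2394. For Cryab the lengths were 1479 and 1117 bases. In sham 1, Hspa8 had 33463 fragments and Cryab 12678.

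Ratios within a library were taken for 8 pairs of members and were not tested. Hspb7, the member with the lowest log2 fold change, stood lower in VO relative to Cryab and Hspb8: Hspb7 to Cryab was 0.469, 0.471 and 0.529 in sham and 0.376, 0.400 and 0.433 in VO, and Hspb7 to Hspb8 was 1.82, 2.04 and 2.13 in sham and 1.35, 1.59 and 1.70 in VO. Hspb7 to Bag3 also separated the groups, at 4.19, 3.12 and 4.08 in sham and 2.10, 2.44 and 2.76 in VO. Hspb1 to Cryab (0.342 to 0.384 in sham, 0.306 to 0.400 in VO) did not separate them, nor did Hspb6 to Hspb7 (0.324 to 0.341 in sham, 0.306 to 0.421 in VO).

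The small heat shock family list holds 9 genes, of which 7 were tested: the 5 members above, and Hspb2 and Hspb3. All 7 had every VO library below every sham library (12.9% of all tested genes) and were lower at an unadjusted p under 0.05 (8.08%); scaled to the cardiomyocyte markers, 6 of 7 were lower and 0 passed. Without sham 1 (4.74% of all tested genes), or without sham 3 (6.76%), 3 of the 7 passed. Hspb2, a partner of myotonic dystrophy kinase whose gene overlaps Cryab, had 59.7, 32.7 and 34.6 FPKM in sham and 17.7, 26.8 and 21.3 FPKM in VO (log2 fold change -0.91, SE 0.26, adjusted p = 0.391). Hspb3, a muscle small heat shock protein, had 11.2, 10.2 and 10.6 FPKM in sham and 4.02, 6.91 and 8.95 FPKM in VO (log2 fold change -0.75, SE 0.27, adjusted p = 0.406). Cryaa, the lens α-crystallin, was listed at 0 in all libraries and Hspb9 did not exceed 0.423 FPKM.

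The list of heat shock factors, which also holds the HSF-binding protein gene Hsbp1, had a median of -0.21. That median was the value of Hsbp1. A list of HSF1 targets had a median of -0.25, against -0.37 over the members. The target list is not separate from the members, as it includes Hspa1a, Hspa1b, Hspa8, Hsp90aa1, Hspb1, Cryab and Bag3. Hsf1 had 3.86, 4.89 and 4.56 FPKM in sham and 3.26, 4.06 and 3.96 FPKM in VO (log2 fold change -0.23, adjusted p = 0.487), and Hsf2 had a log2 fold change of -0.06 (adjusted p = 0.833). Hsf4 ran from 0.463 to 1.33 FPKM and was not tested. Of the 19 listed HSF1 targets, which include the constitutive Hspa8 and Hsp90ab1, 17 were lower in VO, with a median of -0.25. With TPM and with quantile normalization 13 of 19 were lower, and scaled to the cardiomyocyte markers 2 of 19. At an unadjusted p under 0.05, 4 of 19 were lower, against 8.08% of all tested genes. The 4 were the members Hspb1 and Cryab, and Dnajb4 and Stip1. Without sham 1, 1 of the 19 passed (4.74% of all tested genes), and without VO 1 (5.09%) or VO 2 (9.67%), 2 did. Among the classical inducible partners, the fitted difference was near 0 for Hsph1 (HSP110, a nucleotide exchange factor) at a log2 fold change of 0.01, Dnajb1 (HSP40) at 0.04 and Dnaja1 at -0.01, with confidence intervals of -0.29 to 0.30, -0.37 to 0.45 and -0.34 to 0.33.

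**Figure D3:**
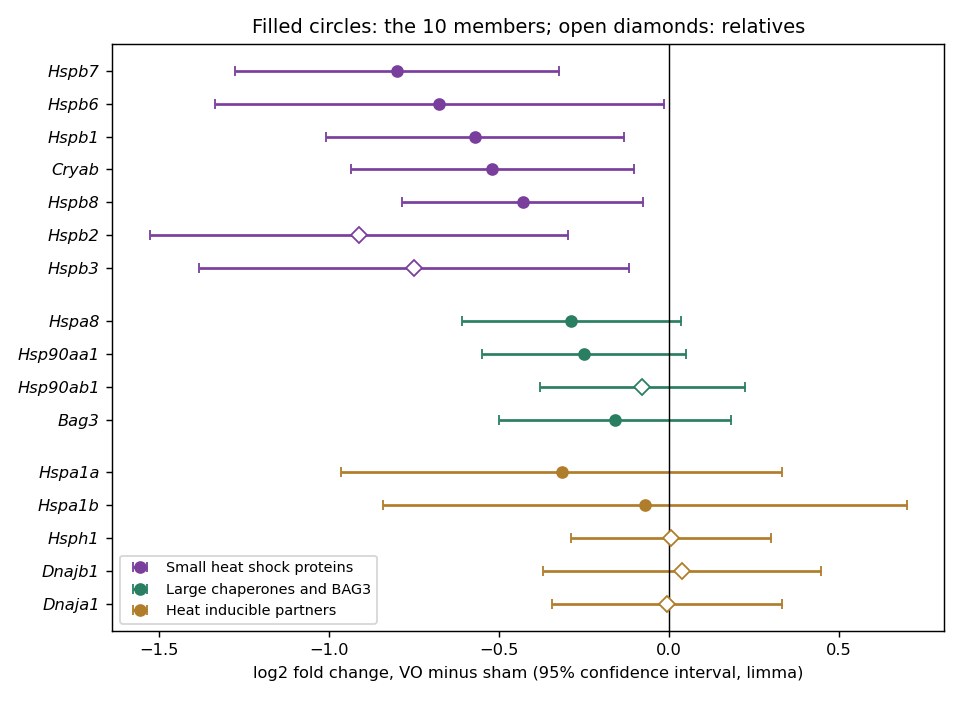
log2 fold change, VO minus sham (x axis), with 95% confidence intervals from limma, for the 10 members (filled circles) and 6 related genes (open diamonds), coloured by group. The intervals of all 7 small heat shock genes lie below 0 before adjustment, from -0.43 for Hspb8 to -0.91 for Hspb2, and all others cross 0; scaled to the cardiomyocyte markers, the values of Hspb8, Hspa8, Hsp90aa1, Bag3, Hspa1a and Hspa1b turn positive.

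The co-chaperones were counted in lists as well. In the HSP70 family, 10 of 14 tested genes were lower in VO, with a median of -0.09. At an unadjusted p under 0.05, 0 passed, against 8.08% of all tested genes, and 2 did without sham 3 (6.76%). With TPM 7 of 15 were lower (median 0.03), and scaled to the cardiomyocyte markers 0 of 14. Hspa1l, the remaining gene of the Hspa1 cluster, was below the level tested, at 1.40, 1.24 and 1.19 FPKM in sham and 0.312, 0.347 and 0.787 FPKM in VO. Of 17 genes of the HSP90 family and its co-chaperones, 15 were lower and 4 passed the unadjusted threshold, against 8.08% of all tested genes. That count was 1 without VO 1 (5.09% of all tested genes) or without sham 1 (4.74%) and 2 without sham 2 (6.27%). With TPM 10 of 17 were lower, with quantile normalization 12, and scaled to the cardiomyocyte markers 1. The 4 were Unc45b (the myosin chaperone, log2 fold change -0.46), Fkbp4 (an HSP90 immunophilin, -0.56), Stip1 (the HSP70 to HSP90 adaptor, -0.39) and Smyd1 (a muscle methyltransferase that works with HSP90 on myosin, -0.34). Hsp90ab1, the constitutive HSP90, had 410, 443 and 390 FPKM in sham and 374, 382 and 422 FPKM in VO (-0.08), which overlapped.

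Among the J proteins, which deliver clients to HSP70, 14 of 16 were lower in VO and 4 (Dnajb5, Dnaja2, Dnajb2 and Dnajb4) passed an unadjusted p under 0.05 (8.08% of all tested genes); 9 of 16 were lower with TPM and with quantile normalization, and 2 of 16 scaled to the cardiomyocyte markers. Without sham 1 (4.74% of all tested genes), or without sham 3 (6.76%), 2 of the 16 passed. Dnajb5 had the lowest log2 fold change of the tested J proteins, with 12.4, 12.9 and 14.5 FPKM in sham and 4.14, 6.21 and 7.68 FPKM in VO (log2 fold change -1.17, SE 0.22, adjusted p = 0.283). Dnaja2, a general HSP40, had 124, 106 and 110 FPKM in sham and 79.6, 86.7 and 87.0 FPKM in VO (-0.42, adjusted p = 0.373). Of 9 BAG proteins and exchange factors, 8 were lower and 1, Bag2 (-0.45), passed the unadjusted threshold (8.08% of all tested genes). Without sham 3, 2 did (6.76%). Scaled to the cardiomyocyte markers, 0 of 9 were lower.

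Clients and partners of the BAG3 and HSPB8 complex, with Bag3, Hspb8 and Hspa8 themselves, were counted as a further list. In it 12 of 13 were lower, and 3 (Hspb8, Flnc and Des) passed an unadjusted p under 0.05, against 8.08% of all tested genes. With TPM 7 of 13 were lower, with quantile normalization 5 of 13, and scaled to the cardiomyocyte markers 1 of 13. Without sham 1 (4.74% of all tested genes) or sham 3 (6.76%), 1 passed, and without sham 2 (6.27%), 2 did. Des (desmin, the muscle intermediate filament) had 274, 234 and 246 FPKM in sham and 112, 206 and 166 FPKM in VO (log2 fold change -0.68, adjusted p = 0.404). Flnc (filamin C, a BAG3 client at the Z-disc) had 21.7, 31.0 and 30.3 FPKM in sham and 19.3, 20.2 and 19.7 FPKM in VO (-0.47, adjusted p = 0.404).

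Chaperonins and the chaperones of mitochondria and the endoplasmic reticulum were counted last. Among cytosolic chaperonins and mitochondrial chaperones, 16 of 17 were lower, with a median of -0.23. Of these, 1 (Cct7, -0.39) passed an unadjusted p under 0.05, against 8.08% of all tested genes. That count was 0 without VO 1 (5.09% of all tested genes), VO 2 (9.67%) or sham 1 (4.74%) and 4 without VO 3 (7.74%). Among endoplasmic reticulum chaperones, 8 of 14 were lower, with a median of -0.10, and 0 passed. Without sham 3, 1 did (6.76% of all tested genes). Hspa5 (BiP) was at -0.11. Scaled to the cardiomyocyte markers, 0 of 17 and 0 of 14 were lower, and with quantile normalization 12 of 17 and 6 of 14.

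Cardiomyocyte markers were lower in VO, as were the members, while other cell type markers differed in either direction. The 10 cardiomyocyte markers, which the RA label calls for, were all present, and all 10 were lower in VO (8 with quantile normalization). Of the 10, 5 (Tnnt2, Actn2, Myl7, Myl4 and Ldb3) passed an unadjusted p under 0.05, against 8.08% of all tested genes. With quantile normalization 0 passed, against 6.605%. The median of the 10 was -0.46, and their summed level was 16514, 12805 and 12470 FPKM in sham and 6479, 11577 and 9220 FPKM in VO. Without sham 3, 1 of the 10 passed (6.76% of all tested genes). Without sham 1 (4.74%), sham 2 (6.27%), VO 1 (5.09%) or VO 3 (7.74%), 2 did. Per 100 FPKM of these markers, the 5 small heat shock members had 7.53, 8.81 and 9.43 FPKM in sham and 9.40, 7.55 and 9.99 FPKM in VO, and the groups overlapped. In bulk tissue, fewer cardiomyocytes and less RNA per cardiomyocyte cannot be told apart.

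VO 1, the lowest library for 6 members, also had the highest level of macrophage and leukocyte markers. Their summed level was 337, 268 and 246 FPKM in sham and 897, 283 and 347 FPKM in VO, with all 10 markers higher in VO (median 0.71); without VO 1 the median was 0.24, and 2 of 9 tested markers were lower. VO 1 had the lowest mean correlation with the other libraries (0.923, against 0.935 to 0.954). Without VO 1, 5 members were lower at an unadjusted p under 0.05, where 5.09% of all tested genes were. The log2 fold change was then -0.58 for Hspb7, -0.41 for Hspb1, -0.35 for Cryab, -0.33 for Hspb6 and -0.30 for Hspb8.

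Other markers differed between single libraries or between the groups. VO 3 had 389 FPKM of adipocyte markers, including 253.6 FPKM of Ucp1 (the uncoupling protein of brown fat), which was listed at 0 elsewhere, against 3.50 to 7.72 FPKM in the rest. Without VO 3, 6 members were lower at an unadjusted p under 0.05, where 7.74% of all tested genes were. The ventricular myosin light chain Myl2 varied from 1.54 to 60.4 FPKM, highest in sham 1 and sham 3. Fibroblast markers were higher for 8 of 10 genes (median 0.23). The endothelial markers summed to 95.4% to 105.8% of the sham mean in sham and 89.6% to 101.1% in VO. Of 8 skeletal muscle markers, Myh1 and Myod1 were listed at 0 throughout. The 8 summed to a mean of 4.75 FPKM in sham and 2.29 FPKM in VO. Only Tnni2 was tested, at 2.66, 2.25 and 2.42 FPKM in sham and 0.626, 1.07 and 0.569 FPKM in VO (log2 fold change -1.62, adjusted p = 0.283). With no filter on mean FPKM, 4 of 6 skeletal muscle markers were lower in VO. The 7 smooth muscle markers summed to 196, 182 and 243 FPKM in sham and 85.6, 140 and 142 FPKM in VO. Of the 6 tested, 4 were lower in VO and 2 higher (median -0.14). The part of these cell type markers in the members' differences was not tested.

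**Figure D4:**
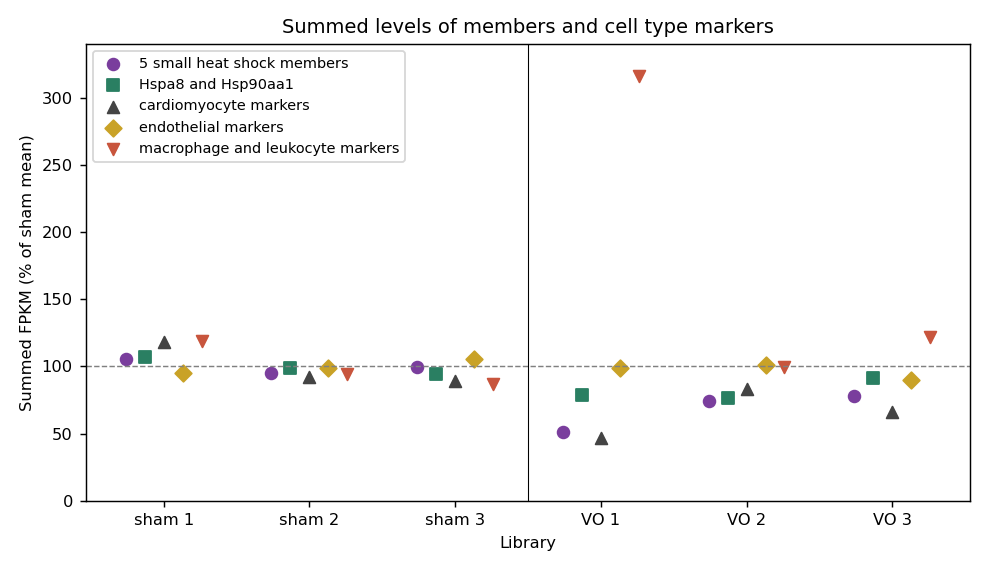
Summed FPKM of the 5 small heat shock members, of Hspa8 and Hsp90aa1, and of 3 sets of cell type markers in each library, as a percentage of the sham mean of the same set (y axis; dashed line, 100). In the VO libraries the small heat shock members are at 51.5%, 73.9% and 77.9% and the cardiomyocyte markers at 46.5%, 83.1% and 66.2%, while macrophage and leukocyte markers reach 316% in VO 1 and are at 99.6% and 122% in VO 2 and VO 3.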

How the data were processed

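Total RNA from right atrium was sequenced by the authors in 3 sham and 3 VO libraries. Per the labels' processing notes, HISAT2 2.0.5, StringTie 1.3.3b and featureCounts 1.5.0-p3 were among the tools and GRCm38 (mm10) the build; the counting settings are not given in the sources used here. The authors deposited FPKM per gene, described as normalized for gene length and mapped reads. A value of 1 FPKM over 1 kilobase stood for 15.56 fragments in sham 1 and 18.14 in VO 1. The recovered totals, 16494342 and 16852482 fragments, did not differ in that proportion, so the library scaling was not by these totals. All values came out as whole fragments (100% within 0.1), 15963082 to 17237903 a library, and that depth limits counting precision only. No columns of other samples were present. Scaling by median of ratios (factors of 1.00) left the FPKM unchanged. Genes with a mean of at least 1 FPKM were kept, and log2(FPKM + 0.1) was fitted with limma 3.58.1 in R 4.3.3 (empirical Bayes with trend, two-sided, Benjamini-Hochberg over 12627 genes, threshold 0.05). The script was tested on simulated data. Named genes were all members with each library's value and, in each list, those with the smallest unadjusted p or the highest mean, plus preset relatives; pseudogenes, Hspa1l, Nppb and the cell type markers were named after their values were seen. Members, lists and tests were chosen with earlier results of these data known. Gene starts and ends matched GENCODE M21 for 98.4% of 54039 shared genes and for all 10 members. Alternatives covered the pseudocount, filter, scaling, variance model, weights, replicate block and each library left out.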

Additional observations from a re-analysis of the deposited data

How the results depend on the processing

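In all 20 alternatives, or 19 for Hspa1a and Hspa1b, which a filter at a mean of 5 FPKM removed, no member reached an adjusted p under 0.05, and Hspb7, Hspb6, Hspb1 and Cryab stayed lower in VO. Among these alternatives, the fit on FPKM as deposited gave the same values as the main fit. The filters, the empirical Bayes settings (without trend, or robust) and the replicate block left the log2 fold change of each gene kept unchanged. The direction could therefore not change in those alternatives. The median log2 fold change of the members, -0.37, was -0.24 with TPM and -0.19 with quantile normalization, and -0.50 to -0.31 with 1 library left out. TPM moved the median of all genes to 0.15 and the share at an unadjusted p under 0.05 to 3.44% lower and 8.06% higher. The count of members lower at that threshold, 5, was 2 with quantile normalization (6.605% of all tested genes). With 1 library left out it was 2 to 6 (4.739% to 9.667% of all tested genes). The count with all VO below all sham, 6, was 3 with quantile normalization, where the share of all tested genes was not counted. With 1 library left out it was 6 to 9, but fewer libraries separate more easily, and the share of all tested genes was not counted there. The labels give no pairing by replicate number. Deviations of same-numbered libraries had correlations of -0.11, 0.01 and -0.03, which cannot exclude a pairing with so few libraries. With replicate numbers as a block, 2 members passed the unadjusted threshold, where 4.815% of all tested genes were lower. Hspa1b was at 0.068 with TPM, at 0.074 with array weights and at -0.47 to 0.13 with 1 library left out (0.11 without sham 1, 0.13 without sham 2, 0.042 without VO 2). Bag3 was at 0.013 with quantile normalization, and the summed Hspa1a and Hspa1b at -0.55 to 0.039 with 1 library left out. Scaling to the cardiomyocyte markers, chosen after seeing the data, moved the median of all genes to 0.48; there the members' median was 0.11, 0 members passed the unadjusted threshold or had all VO below all sham, and Hspa1a was at 0.16, Hspa1b at 0.41, Hspa8 at 0.21, Hsp90aa1 at 0.24, Hspb8 at 0.064 and Bag3 at 0.33. Beyond the construction of each scaling, the cause was not tested.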
